A study of Mus musculus with 2 samples.

Results

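The 10 genes described here are the interleukin-1 (IL-1) family genes Il1b, Il1rn, Il1f9, Il1r2 and Il18 and the inflammasome genes Nlrp3, Casp1, Casp4, Pycard and Gsdmd. They were chosen by symbol, and all 10 were found among the 26124 genes of the deposited count tables. Transcripts had been counted as unique molecular identifiers (UMIs) by droplet single-cell RNA sequencing in spleen suspensions from 1 wild-type and 1 sickle cell disease (SCD) mouse of the Berkeley line, both untreated and 12 to 16 weeks old. The suspensions had been enriched for dendritic cells (DCs) by negative selection on beads. Both mice were labelled homozygous for the mouse alpha globin allele Hbatm1Paz. The wild-type mouse was a non-sickling control with 1 targeted beta globin allele (Hbbtm1Tow) that was hemizygous for the human sickle globin transgene Tg(HBA-HBBs)41Paz, and the SCD mouse was homozygous for both. The comparison asks how spleen cells differ under the chronic hemolysis of SCD. Since each group was 1 animal, no difference could be tested against the spread between animals, and the intervals in brackets (95%, exact Poisson for levels, exact binomial for shares and for ratios of counts) cover counting error only.

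IL-1β and IL-18 are cytokines that are made as inactive precursors. Transcription of Il1b is switched on by danger and microbial signals that act through NF-κB, and the precursor is then cleaved by caspase-1 once a sensor such as NLRP3 and the adaptor ASC, encoded by Pycard, have assembled into an inflammasome. Caspase-11, encoded by Casp4 in the mouse, responds to bacterial lipopolysaccharide inside the cell, and both caspases open the pore protein gasdermin D. Neutrophils, monocytes and macrophages are well-known sources of IL-1β. Transcript levels do not show whether a precursor was cleaved or released.

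The wild-type library held 10845 cells with a median of 4991 UMIs and the SCD library 13447 cells with a median of 8596, of which 9423 and 10635 passed the filters. The mouse beta globin transcript Hbb-bs stood at 2293 UMIs per 1000000 UMIs of the library (CPM) for the wild-type mouse but at 20.8 for the SCD mouse, the homozygote of the targeted allele. Hba-a1 was among the leading genes of the erythroid clusters although both mice carry 2 targeted alpha globin alleles, and which part of that gene is deleted is not given in the sources used here. Clusters were named from marker genes as neutrophil-like, monocyte-like and so on, and the suffix is left out below. The classes held 4311 wild-type and 7168 SCD neutrophils, 1036 and 1383 monocytes, 2682 and 660 conventional DCs, 806 and 708 plasmacytoid DCs (pDCs), 290 and 155 red pulp macrophages, the cells that clear aged erythrocytes, and 51 and 70 erythroid cells. The enrichment had thus left many cells other than DCs. Of 38 clusters, 13 came to over 80% from the SCD and 12 to over 80% from the wild-type library, so that a class was often made of different clusters in the 2 libraries. The libraries shared 88 barcodes, 22 of them among the kept cells.

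Neutrophils were divided into promyelocytes, dividing, immature and mature cells by stage markers. Mature cells made up 88.2% of the wild-type but 39.8% of the SCD neutrophils, which were mostly immature (50.04%). Levels are therefore given for each stage as well as for all neutrophils. A gene counted as expressed in a class when it reached 50 CPM and 20 UMIs in at least 1 library, and log2 ratios (SCD over wild-type) were taken after adding 5 CPM.

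The promoter sequences of Il1b, Nlrp3, Casp4 and Pycard are shown because Il1b and Nlrp3 were the members with the widest differences in neutrophils, Casp4 was the caspase past 2-fold there, and Pycard was the member that was higher in SCD. RefSeq held 13 windows for 9 of the 10 members, Gsdmd being the exception. Each sequence is the 250 bases before a RefSeq start site on GRCm38.p6, read 5′ to 3′ on the gene's strand: chr2:129371140-129371389 (minus) for Il1b, chr11:59541319-59541568 (plus) for Nlrp3, chr9:5308599-5308848 (plus) for Casp4 and chr7:127993868-127994117 (minus) for Pycard. Capitals mark matches, on either strand, to a TATA box (TATAAA), a κB site (GGG and CC with any 5 bases between them), an AP-1 site (TGANTCA), a C/EBP site (TTNNGNAA) or a PU.1 site (GAGGAA).
Il1b: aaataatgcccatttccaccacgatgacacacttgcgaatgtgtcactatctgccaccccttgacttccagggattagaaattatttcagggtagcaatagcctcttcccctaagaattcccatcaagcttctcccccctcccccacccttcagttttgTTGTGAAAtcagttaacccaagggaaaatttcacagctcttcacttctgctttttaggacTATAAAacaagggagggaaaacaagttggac
Nlrp3: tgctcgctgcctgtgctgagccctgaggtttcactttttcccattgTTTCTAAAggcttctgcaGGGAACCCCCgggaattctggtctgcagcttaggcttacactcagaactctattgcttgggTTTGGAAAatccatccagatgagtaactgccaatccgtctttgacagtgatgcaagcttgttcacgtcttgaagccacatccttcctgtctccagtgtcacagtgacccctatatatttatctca
Casp4: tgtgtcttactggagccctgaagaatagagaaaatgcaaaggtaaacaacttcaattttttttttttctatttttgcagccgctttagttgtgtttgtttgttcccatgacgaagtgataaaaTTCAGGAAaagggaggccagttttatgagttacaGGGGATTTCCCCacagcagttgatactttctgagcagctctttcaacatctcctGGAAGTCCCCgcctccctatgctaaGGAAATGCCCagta
Pycard: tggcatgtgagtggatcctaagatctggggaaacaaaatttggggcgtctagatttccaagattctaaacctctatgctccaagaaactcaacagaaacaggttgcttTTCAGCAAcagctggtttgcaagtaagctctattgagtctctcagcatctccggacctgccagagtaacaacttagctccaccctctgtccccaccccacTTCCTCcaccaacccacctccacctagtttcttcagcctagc

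In Il1b the window held a TATA box from -31 to -26 and a C/EBP match from -91 to -84, counted from the start site, and no match to the κB letters used here. The Nlrp3 window shown, the upstream one of 2, held 1 κB match from -186 to -177 and C/EBP matches from -204 to -197 and from -125 to -118. The other Nlrp3 window held no κB match, 1 C/EBP match and 3 PU.1 matches. Casp4 held overlapping κB matches on both strands between -93 and -82, single ones from -39 to -30 and from -14 to -5, and a C/EBP match from -127 to -120. Pycard held a C/EBP match from -142 to -135 and a PU.1 match from -42 to -37. Such matches were common among all 32817 promoter windows: 12.4% held the TATA letters, 45.8% the κB, 6.75% the AP-1, 36.8% the C/EBP and 23.3% the PU.1 letters. They are descriptions of sequence, not of binding.

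Il1b lies on GRCm38 at chr2:129364570-129371139, and Il1rn (chr2:24336853-24351494) and Il1f9 (chr2:24186476-24193568) lie 143284 bases apart elsewhere on that chromosome with 3 protein-coding genes between them. Casp1 (chr9:5298517-5307265) and Casp4 (chr9:5308828-5336783) are neighbours, 1562 bases apart. Il18 is at chr9:50554827-50581840, Il1r2 at chr1:40074079-40125231, Nlrp3 at chr11:59541568-59566956, Pycard at chr7:127989708-127993867 and Gsdmd at chr15:75862327-75867408. Exons of Il1b overlap the antisense gene Il1bos, and exons of Pycard overlap the gene Gm45205 on the other strand.

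In neutrophils as a whole, Il1b was far lower in SCD. The cytokine gene had 2039 CPM (32253 UMIs) in wild-type and 166 CPM (9958 UMIs) in SCD neutrophils, a level 12.3-fold lower (12.0 to 12.6). Nlrp3, the inflammasome sensor, was at 160.1 and 19.1 CPM, 8.38-fold lower (7.81 to 8.99). Both differences were far wider than their counting error. The size of the Il1b difference also depended on how cells were weighted, and as a mean over cells its log2 ratio was -2.50 instead of -3.58.

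The other members with a role in IL-1 signalling were also lower in the SCD neutrophils, by less. Il1r2, a decoy receptor that binds IL-1 without signalling, stood at 118 and 34.7 CPM (log2 ratio -1.63). Il1rn, the secreted receptor antagonist, stood at 250.5 and 94.3 CPM (-1.36). Il1f9, which encodes IL-36γ, stood at 140.1 and 69.9 CPM and just missed the 2-fold line on the log2 scale used (-0.95). Among the inflammasome genes, Casp4 was at 60.4 and 24.3 CPM (-1.16), Gsdmd at 51.9 and 34.9 CPM (-0.51) and Casp1 at 25.7 and 20.8 CPM (-0.25). Pycard went the other way, from 34.01 CPM in wild-type to 74.0 CPM in SCD, 2.18-fold higher (1.99 to 2.39). Il18 was low, at 6.45 and 1.43 CPM from 102 and 86 UMIs, 4.51-fold lower (3.35 to 6.07) but under the 50 CPM limit in both.

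Of the 8 members expressed in neutrophils, 5 (Il1b, Il1rn, Il1r2, Nlrp3 and Casp4) were at least 2-fold lower and 1 (Pycard) at least 2-fold higher in SCD. Of all 2481 genes expressed in neutrophils, 19.5% were lower and 1.77% higher by this measure. The median log2 ratio was -1.26 over the members and -0.37 over all these genes, so that a lower level was common in this class. When the libraries were instead scaled by the median of ratios, which moved all neutrophil values by 0.40 on the log2 scale, Il1b, Il1r2 and Nlrp3 stayed past 2-fold lower, Il1rn and Casp4 did not, against 9.91% of all genes lower and 8.27% higher at that scaling, and the share of lower genes among all calls went from 91.7% to 54.5%. Pycard was past 2-fold higher under both scalings but fell short of it under 5 of the other alternatives, at 0.80 to 0.99.

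**Figure D1:**
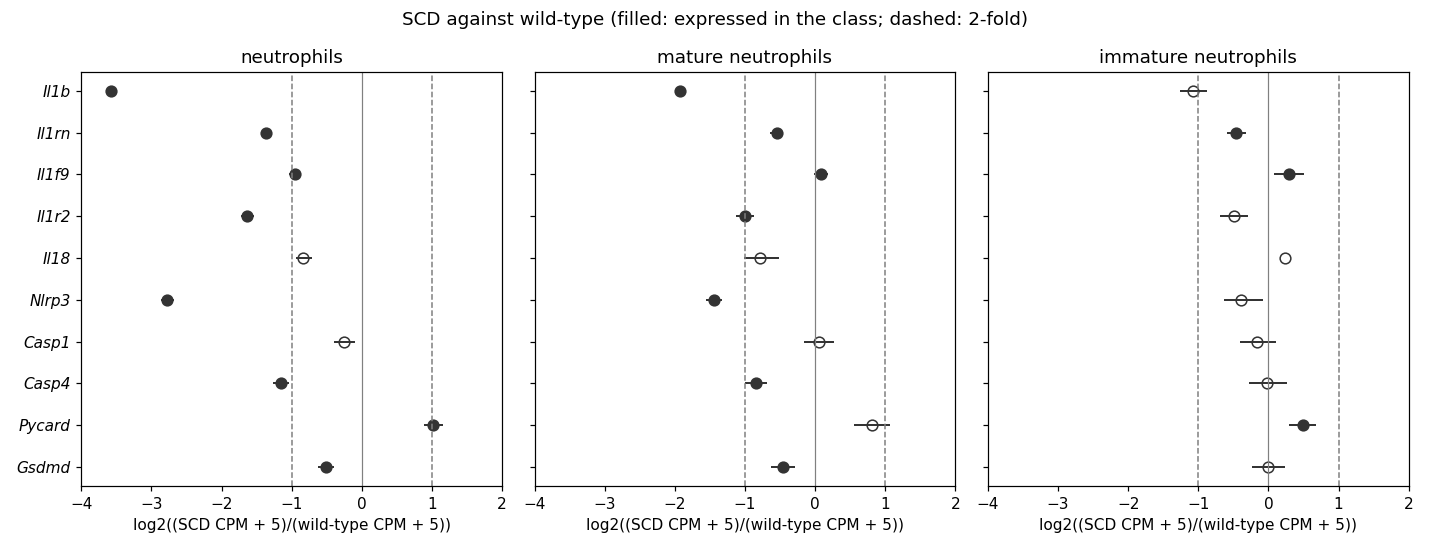
Log2 ratios (SCD over wild-type, after adding 5 CPM) of the 10 members in all neutrophils, mature neutrophils and immature neutrophils. Filled points are members expressed in the class, lines are intervals of counting error and dashed lines mark 2-fold. Il1b and Nlrp3 sit far to the left in all neutrophils, at -3.58 and -2.78, and Pycard sits to the right in each panel.

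Since the stages differed in share, each stage was compared on its own. Mature neutrophils had 3322 CPM of Il1b in wild-type and 868 CPM in SCD, 3.83-fold lower (3.74 to 3.92). This log2 ratio of -1.93 ran from -2.85 with at least 1000 genes per cell to -1.38 as a mean over cells, leaving aside the equal mix of sub-clusters given below. Nlrp3 was at 259 and 92.5 CPM (log2 ratio -1.44), and Il1r2 at 169.7 and 82.2 CPM (-1.002). These were the 3 members past 2-fold lower of the 7 expressed in this stage, and none was past 2-fold higher, against 10.4% lower and 2.55% higher of all 2508 expressed genes. The median log2 ratio was -0.84 over the members and -0.41 over all. Under median-of-ratios scaling, which moved this stage by 0.44, Il1b and Nlrp3 remained past 2-fold, Il1r2 did not (-0.59), as it did not under 4 further alternatives (-0.89 to -0.95). At that scaling 2.52% of all genes were lower and 5.56% higher, and lower genes made up 31.2% of all calls instead of 80.2%.

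The remaining members of mature neutrophils were not past 2-fold lower as expressed genes. Il1rn stood at 352 and 239 CPM (-0.55), Casp4 at 85.0 and 45.2 CPM (-0.84) and Gsdmd at 62.9 and 44.4 CPM (-0.46). Il1f9 stood at 210.5 and 223 CPM, with a ratio of 1.06 (0.998 to 1.12), and Casp1 at 29.5 and 30.7 CPM, with a ratio of 1.04 (0.886 to 1.23). For both genes the interval of the ratio held 1. Pycard was at 15.2 and 30.3 CPM, 2.00-fold higher (1.64 to 2.44), but under the 50 CPM needed to count as expressed. Il18, at 10.6 and 4.05 CPM from 102 and 43 UMIs, was also under that limit and 2.61-fold lower (1.81 to 3.82).

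Immature neutrophils expressed 3 members. These, Il1rn (123 and 88.2 CPM), Il1f9 (40.6 and 50.7 CPM) and Pycard (55.6 and 79.99 CPM), all stayed within 2-fold, as did nearly all 1896 genes of the stage (0.211% lower, 0.105% higher). Il1b had 48.3 CPM (42.1 to 55.2) in wild-type and 20.4 CPM (18.9 to 22.0) in SCD cells and did not count as expressed in either, although the level was 2.37-fold lower (2.03 to 2.76) in SCD and the gene did count, as past 2-fold lower, when levels were taken as a mean over cells. Most of it came from 1 small cluster of 24 wild-type and 133 SCD cells, of which 29.2% and 48.1% were called doublets. Of the 219 wild-type Il1b UMIs of the stage 165 lay there, and so did 561 of the 693 SCD ones. In the 3 immature clusters with at least 50 cells of both libraries Il1b was at 13.6 and 4.16 CPM, with the widest difference of the 3 in cluster 3, at 22.97 and 3.99 CPM from 27 and 34 UMIs. In dividing neutrophils only Pycard was expressed, at 83.2 and 78.0 CPM (ratio 0.938, 0.770 to 1.15), and none was past 2-fold, against 0.0462% of 2165 genes lower and 0.323% higher. The promyelocytes numbered 12 and 163 and were not compared.

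The stages were also weighted alike. With the wild-type mix of stages applied to both libraries, the neutrophil Il1b ratio of SCD to wild-type went from 0.0813 to 0.262, and with the SCD mix to 0.267. For Nlrp3 it went from 0.119 to 0.360 and 0.377, for Il1f9 from 0.499 to 1.08 and 1.14, and for Casp4 from 0.402 to 0.585 and 0.732. The Pycard ratio went from 2.18 to 1.48 and 1.32. At an equal stage mix the Il1f9 ratio was thus near 1, and those of Il1b, Nlrp3, Casp4 and Pycard were nearer to 1 than without it.

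**Figure D2:**
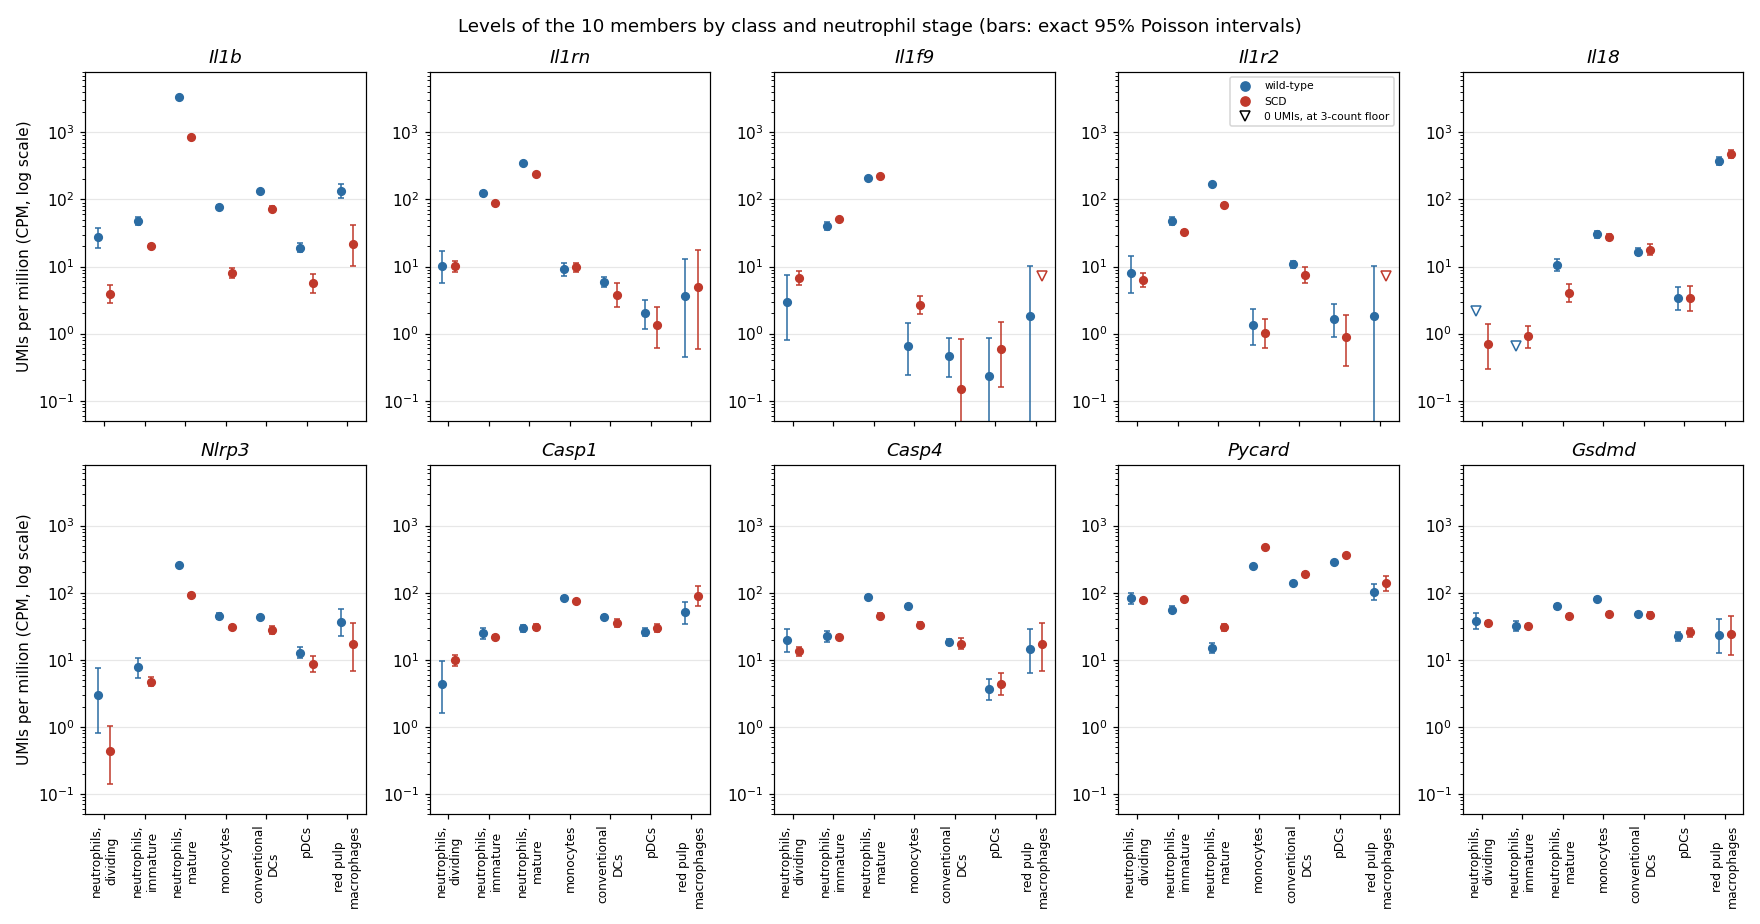
Level of each member in CPM (log scale) in 3 neutrophil stages and 4 other classes, for the wild-type (blue) and the SCD library (red), with exact 95% Poisson intervals and with open triangles at 3 counts where no UMI was seen. Monocytes, DCs and macrophages are shown without the cluster of each that held neutrophil RNA. Il1b in mature neutrophils stands above every other class in both libraries, and Il18 in red pulp macrophages likewise.

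Each cell was also thinned to 1000 UMIs so that shares of cells could be compared at 1 depth. At least 1 Il1b UMI was seen in 86.0% of 3787 wild-type (84.9 to 87.1) and 42.7% of 2850 SCD mature neutrophils (40.9 to 44.6). In pDCs outside a mixed cluster described below, taken as a class of low Il1b, the share was 2.27% and 0.154%. Their median depths were 11134.5 and 9276.5 UMIs, against 2353 and 3553.5 in the mature neutrophils. Without thinning, the mature neutrophil shares were 94.3% and 57.3%. The mean was 3.53 Il1b UMIs per thinned wild-type and 1.38 per SCD cell, and the median 3 and 0. The 10% of cells with the most Il1b held 28.2% of all Il1b UMIs of the stage in the wild-type and 51.0% in the SCD library, so that in SCD the transcript was concentrated in fewer cells.

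Some of the other members were also compared over the thinned mature neutrophils. Nlrp3 was seen in 22.0% and 10.8% of the thinned cells, and Il1rn in 26.7% and 21.8%. Cells with an Il1b UMI held an Nlrp3 UMI more often than cells without one, in 22.8% against 17.7% of wild-type cells and in 16.0% against 6.99% of SCD cells. For Casp4 the shares were 7.95% against 4.72% and 7.47% against 3.31%. For Il1f9 they were 17.4% against 13.96% in the wild-type and 16.3% against 19.9% in the SCD library, with no common direction.

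The mature stage was made of 5 neutrophil clusters, here called sub-clusters, for which the members and the listed pathway, immediate early and cytokine genes had been left out of the clustering. Il1b differed far more between sub-clusters than between libraries. Sub-cluster 0, led by Fos, Dusp1 and Fgl2, had 3435 CPM of Il1b (3391 to 3479) in wild-type and 3506 CPM (3273 to 3752) in SCD cells. In sub-cluster 2, led by Clec4n, Gngt2 and Pmaip1, it was at 4317 and 3798 CPM. In sub-cluster 1, led by Cstdc4, Wfdc17 and Stfa2l1, it was at 1022 (903 to 1153) and 927 CPM (899.99 to 955). In sub-cluster 5, whose leading genes include Prok2 and Retnlg, it was at 84.6 (62.96 to 111) and 38.3 CPM (32.9 to 44.4), the 1 sub-cluster of these 4 with a difference of over 2-fold. In sub-cluster 2 the ratio of SCD to wild-type was 0.880 (0.845 to 0.915). The libraries also differed in how their cells were divided among the sub-clusters. Sub-cluster 0 held 71.9% of the wild-type but 3.96% of the SCD mature neutrophils, and sub-cluster 2 held 22.1% and 17.3%. Sub-cluster 1 held 46.4% of the SCD against 1.92% of the wild-type cells, and sub-cluster 5 held 31.0% against 2.79%. Retnlg, a gelatinase-stage transcript, was at 9120 and 7920 CPM in sub-cluster 0 but at 53950 and 53844 CPM in sub-cluster 5. The genes that drew the sub-clusters also differ between the libraries, so that these shares describe how the cells were divided and are not a result on cell numbers. Sub-clusters 0 and 1 also rest on few cells of 1 library, 113 SCD and 73 wild-type cells.

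With the 4 sub-clusters weighted alike, which covers 98.7% and 99.2% of the UMIs of the stage, the Il1b ratio went from 0.256 to 0.984 at the wild-type and 0.888 at the SCD mix. Across 7 other clusterings it was 0.956 to 1.08 and 0.732 to 0.864. The same weighting brought Nlrp3 to 0.689 and 0.817, Il1r2 to 0.591 and 0.783, and left Il1rn at 0.695 and 0.714, close to its ratio without weighting (0.675). Casp4 stood at 1.34 for both mixes, above 1 where it had been below, but in sub-cluster 0, which weighs most in the wild-type mix, its levels of 97.6 (90.3 to 105) and 138 CPM (95.03 to 194) overlapped. Gsdmd stood at 1.12 and 0.989. Pycard stood at 2.24 and 2.10, from as few as 8 SCD UMIs in sub-cluster 0 and 1 wild-type UMI in sub-cluster 1. This weighting was chosen after the data had been seen.

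**Figure D3:**
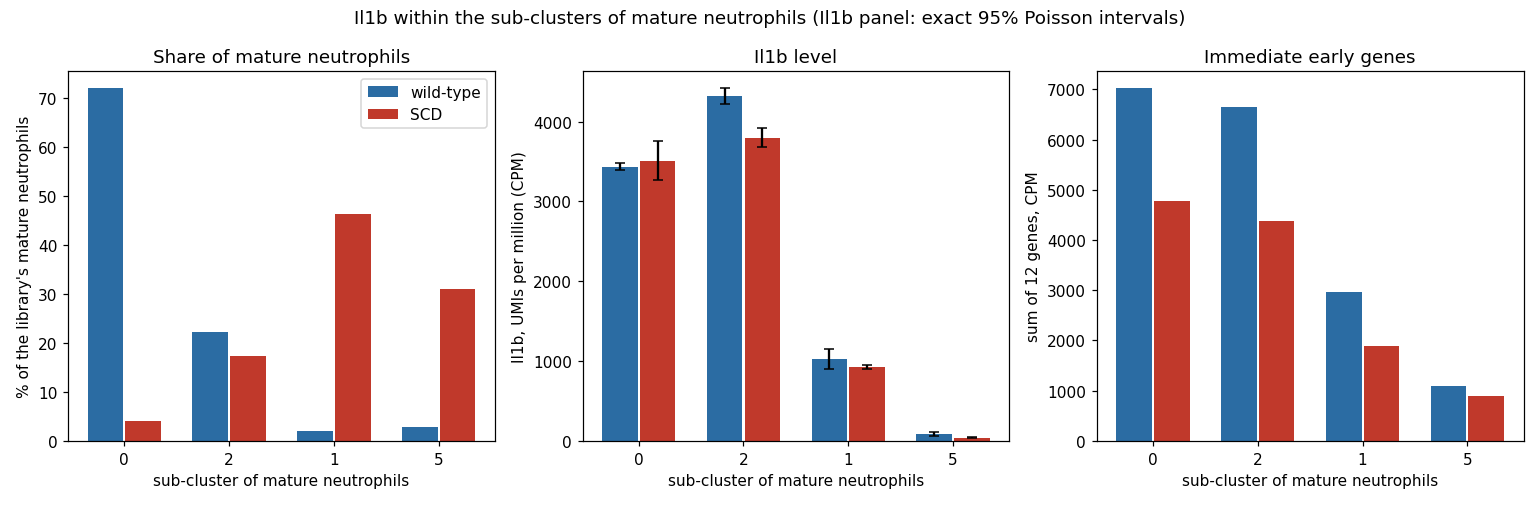
Share of each library's mature neutrophils (left), Il1b level in CPM with exact 95% Poisson intervals (middle) and summed CPM of 12 immediate early genes (right) in sub-clusters 0, 2, 1 and 5, for the wild-type (blue) and the SCD library (red). Il1b is alike in both libraries in sub-clusters 0 and 1, while the share of sub-cluster 0 is 71.9% in wild-type but 3.96% in SCD.

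Immediate early genes, which are switched on within minutes by stimuli that include tissue dissociation, were also lower in SCD. Their 12 transcripts summed to 6462 CPM in wild-type and 1759 CPM in SCD mature neutrophils, and 8 of the 9 expressed were at least 2-fold lower in SCD (Fos -3.89 and Dusp1 -2.95 on the log2 scale), against 10.4% of all genes of the stage, and 6 of 9 were under median-of-ratios scaling, against 2.52%. Within sub-clusters the sum was also lower in SCD, at 7018 and 4778 CPM in sub-cluster 0, where Il1b was alike. Among thinned mature neutrophils with 5 or more immediate early UMIs, wild-type cells had a mean of 3.85 Il1b UMIs (3.77 to 3.92) and SCD cells a mean of 3.72 (3.53 to 3.91). With 1 to 4 such UMIs it was 2.88 and 1.20, and with none 1.01 and 0.372. The high group held 2686 wild-type but 399 SCD cells, the middle group 1016 and 1838, and the group with none 85 and 613. In Il1b the libraries were alike in the high group and differed in the other groups. These groups were not set apart from the sub-clusters. In SCD cells the sum was 4778 and 4386 CPM in sub-clusters 0 and 2 but 1884 and 904 CPM in 1 and 5. Whether the dissociation had a part in these levels was not tested.

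**Figure D4:**
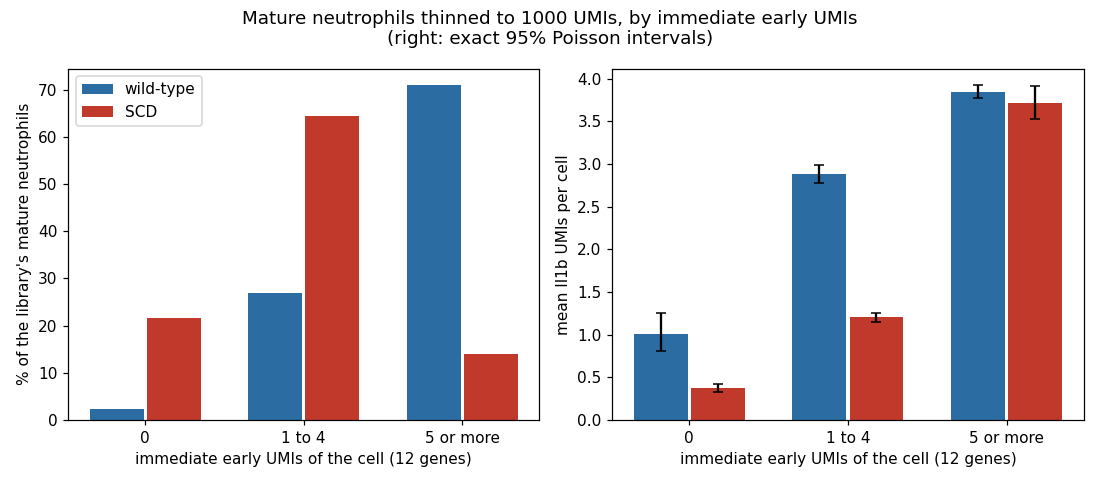
Mature neutrophils thinned to 1000 UMIs, grouped by their UMIs of 12 immediate early genes, with the share of each library's cells on the left and the mean Il1b UMIs per cell with exact 95% Poisson intervals on the right. With 5 or more such UMIs the means are 3.85 (wild-type) and 3.72 (SCD), and with 1 to 4 they are 2.88 and 1.20.

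Outside neutrophils, a part of the Il1b UMIs lay in clusters that also held neutrophil RNA. One cluster each of the monocytes, conventional DCs, pDCs and red pulp macrophages had over 10000 CPM of the neutrophil transcript S100a8 in both libraries, a limit set after the data had been seen. These 4 mixed clusters held 19 to 173 wild-type and 2 to 124 SCD cells each, and the doublet caller marked 64.7% to 93.1% of their wild-type and 8.33% to 100% of their SCD cells. Their Il1b ranged from 592 to 1608 CPM in wild-type and from 61.1 to 2579 CPM in SCD cells, the last in a cluster of 2 cells. Il1b is given for each class with and without its mixed cluster. The immediate early and pathway values below are for whole classes, the mixed cluster included.

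In monocytes Il1b was lower in SCD in both ways of counting. It stood at 139 and 15.02 CPM in all monocytes (log2 ratio -2.85) and at 76.7 (71.1 to 82.6) and 8.07 CPM (6.79 to 9.52) without the mixed cluster. It was the 1 member past 2-fold of 5 expressed in monocytes, against 6.05% of 3436 genes lower and 2.85% higher. Most wild-type monocytes lay in clusters 10 and 13 (492 and 366 cells) and most SCD monocytes in clusters 6 and 15 (856 and 311). Within cluster 13, led by the non-classical monocyte genes Ace and Cd300e and held by 366 and 50 cells, Il1b was at 140 and 62.2 CPM. In cluster 10 it was at 50.1 (44.2 to 56.6) and 58.1 CPM (23.4 to 119.7), the second from 7 UMIs of 11 cells, with intervals that overlapped. In clusters 6 and 15 it was at 69.3 and 6.24 CPM and at 28.6 and 6.39 CPM, the wild-type values coming from 27 and 35 cells.

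Of the 5 members expressed in monocytes as a class, Pycard was the one that was higher in SCD. The adaptor gene had 240.1 CPM (231 to 249.8) in wild-type and 461 CPM (452 to 471) in SCD monocytes, 1.92-fold higher (1.84 to 2.01), and at 247 and 486 CPM without the mixed cluster. In cluster 13, the 1 cluster outside the mixed one with at least 50 cells of both libraries, the difference was narrower, at 149 and 183 CPM (ratio 1.23, 0.910 to 1.63). In the mixed cluster it was at 181 and 299 CPM. On the log2 scale with 5 CPM added it fell short of 2-fold (0.93), and under median-of-ratios scaling or a mean over cells it passed. Gsdmd (80.4 and 46.8 CPM, -0.72) and Casp4 (61.8 and 34.3 CPM, -0.77) were lower by under 2-fold. Casp1 stood at 79.7 (74.3 to 85.4) and 71.7 CPM (68.0 to 75.5), a ratio of 0.899 (0.824 to 0.981). Il18 stood at 30.1 (26.8 to 33.7) and 27.1 CPM (24.9 to 29.5). The intervals of the levels overlapped for both genes. Il1f9, under the 50 CPM limit, was also higher in SCD, at 4.07 and 7.11 CPM (ratio 1.75, 1.23 to 2.54), and at 0.661 and 2.69 CPM from 6 and 47 UMIs without the mixed cluster. Within cluster 13 Il1rn was higher in SCD, at 8.50 and 65.5 CPM from 20 UMIs in each library (ratio 7.71, 3.93 to 15.1), although in all monocytes it stood at 15.5 and 15.2 CPM, and Casp4 was lower there, at 56.1 and 13.1 CPM from 132 and 4 UMIs.

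In conventional DCs the Il1b difference rested in part on the mixed cluster. Il1b stood at 209.6 and 79.9 CPM in the whole class (-1.34), where it was the 1 of 2 expressed members past 2-fold, against 3.62% of 3450 genes lower and 1.65% higher. Without the mixed cluster it stood at 133 (128 to 138) and 73.1 CPM (66.7 to 79.9) and no longer passed (-0.82). In cluster 3, whose leading genes include Ppp1r14a and Dtx1, the levels were 130 and 119 CPM. In cluster 14, led by Xcr1, they were 63.6 and 20.9 CPM, and in cluster 17, led by Cd209a, 79.4 and 40.6 CPM. In cluster 27 (101 and 19 cells) they were 285 and 644 CPM and in cluster 20 (167 and 27 cells) 57.1 and 89.1 CPM. Cluster 9 (522 and 48 cells) stood at 228 and 186 CPM, and cluster 23 (119 and 43 cells) at 55.9 and 35.2 CPM. The difference was thus not of 1 size across DC clusters. A higher level in SCD was seen only in clusters 27 and 20, which held just 19 and 27 SCD cells, so that a difference in direction was not established. Pycard was at 136 and 193 CPM in the whole class (ratio 1.42, 1.33 to 1.52). By cluster its ratio was 1.15 (0.995 to 1.33) in cluster 3, 1.01 (0.868 to 1.17) in cluster 14 and 1.72 (1.51 to 1.964) in cluster 17.

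In pDCs most of the Il1b UMIs lay in the mixed cluster, 436 of 599 in the wild-type and 74 of 113 in the SCD library. Without it the level was under the 50 CPM limit in both, going from 64.7 and 14.6 CPM in the whole class to 19.1 and 5.73 CPM. In the whole class it was the 1 of 2 expressed members past 2-fold, against 0.897% of 3568 genes lower and 3.03% higher. Pycard stood at 282 and 347 CPM (ratio 1.23, 1.17 to 1.298) in the whole class. In cluster 16, the 1 cluster outside the mixed one with at least 50 cells of both libraries, it stood at 394 and 396 CPM (ratio 1.004, 0.896 to 1.13), and in the mixed cluster at 232 and 213 CPM (0.918, 0.745 to 1.13). Cluster 7 held most wild-type pDCs (643 and 3 cells) and cluster 11 most SCD pDCs (8 and 450). On the marker score used for naming, these reached 0.976 and 0.955 for pDCs. Cluster 16 reached 0.292 for pDCs and 0.22 for conventional DCs, so that it was a less clear pDC cluster.

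The level of Il18 was highest in red pulp macrophages. The cytokine gene had 354 CPM (309 to 405) in wild-type and 473 CPM (409 to 544) in SCD macrophages, 1.33-fold higher (1.10 to 1.62), and at 377 and 476 CPM without the mixed cluster. The next classes in order were monocytes (30.1 and 27.1 CPM), erythroid cells (17.5, 7.03 to 36.04, and 21.4, 10.7 to 38.3) and conventional DCs (16.3 and 17.8 CPM), the erythroid intervals overlapping both neighbours, and pDCs were at 3.89 and 3.61 CPM. Red pulp macrophages are few, so that they held 20.5% and 19.7% of all Il18 UMIs, against 34.8% and 11.8% in conventional DCs and 28.4% and 54.2% in monocytes. Il18 was seen in 26.5% (20.7 to 33.0) and 37.0% (28.9 to 45.8) of the thinned macrophages, shares whose intervals overlapped. In pDCs outside their mixed cluster the share was 0.267% and 0.154%. Of the macrophages outside the mixed cluster, 79 of 271 wild-type and 20 of 153 SCD cells were too shallow to be thinned. Casp1, whose product cleaves the IL-18 precursor, stood at 53.4 (36.8 to 75.01) and 88.4 CPM (62.2 to 122), a ratio of 1.65 (1.01 to 2.73) from 33 and 37 UMIs.

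Il1b and Nlrp3 were the 2 of 5 expressed members past 2-fold lower in SCD red pulp macrophages, against 5.68% of 3853 genes lower and 3.17% higher. Il1b was at 299 and 74.1 CPM from 185 and 31 UMIs, and at 135 and 21.9 CPM from 74 and 9 UMIs without the 19 and 2 cells of the mixed cluster. Nlrp3 was at 55.0 and 16.7 CPM from 34 and 7 UMIs and under the 50 CPM limit without them (36.4 and 17.1 CPM). These differences rest on few UMIs.

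Erythroid cells, the precursors of red blood cells, were the smallest class compared, and Il1b was the 1 member expressed there. It stood at 192 CPM (152 to 240) from 77 UMIs in wild-type and at 29.2 CPM (16.4 to 48.2) from 15 UMIs in SCD cells, past 2-fold lower (log2 ratio -2.53), against 6.25% of 2815 genes lower and 60.6% higher. The other 9 members had 0 to 11 UMIs in each library. With no upper limit on genes per cell Il1b no longer counted as expressed there (-2.01). The median log2 ratio of all expressed genes was 1.34 in this class. Median-of-ratios scaling moved it by 1.43, brought Il1b to -3.64 and took the share of lower genes among all calls from 9.35% to 73.9%. The 7 neutrophil transcripts described below stood at a median of 1.67% and 1.80% of their neutrophil level in these cells and Il1b at 9.44% and 17.6% of its own. Whether this Il1b came from the erythroid cells themselves was not tested.

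**Figure D5:**
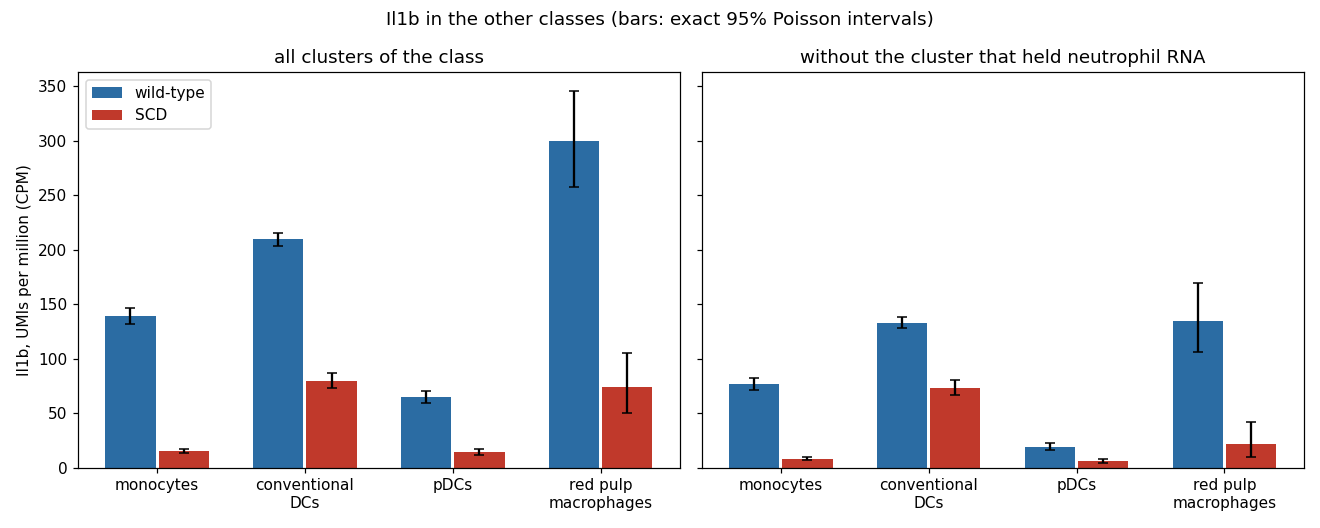
Il1b in CPM with exact 95% Poisson intervals in monocytes, conventional DCs, pDCs and red pulp macrophages of the wild-type (blue) and the SCD library (red), with all clusters of each class (left) and without the cluster that held neutrophil RNA (right). In pDCs the wild-type level goes from 64.7 to 19.1 CPM and in red pulp macrophages from 299 to 135 CPM.

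Sums of the immediate early genes were lower in SCD in these classes too, and counts and shares under median-of-ratios scaling are given in brackets. In monocytes they were 2020 and 622 CPM, with 8 of 9 expressed past 2-fold lower against 6.05% of all genes (7 against 4.597%), and in red pulp macrophages 1191 and 365 CPM, with 6 of 7 against 5.68% (6 against 4.96%). In pDCs they were 1043 and 550 CPM, with 3 of 5 against 0.897% (0 against 0.665%), and in conventional DCs 1947 and 1406 CPM, with 2 of 10 against 3.62% (2 against 2.33%). In erythroid cells they were 1554 and 978 CPM, with 4 of 5 against 6.25% (4 against 38.3%). Their part in the Il1b differences of these classes was not tested.

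The order of the classes for Il1b, without mixed clusters, was as follows. In the wild-type library mature neutrophils came first, then erythroid cells (152 to 240), red pulp macrophages (106 to 169) and conventional DCs (128 to 138), of which the macrophages overlapped both of the others, then monocytes, immature neutrophils, and last dividing neutrophils (19.2 to 37.6) and pDCs (16.3 to 22.3), which again overlapped. In the SCD library conventional DCs came next after mature neutrophils, then erythroid cells (16.4 to 48.2), red pulp macrophages (10.0 to 41.7) and immature neutrophils (18.9 to 22.0), which overlapped, and last monocytes, pDCs and dividing neutrophils at under 10 CPM. The place of immature neutrophils rests on the cluster rich in called doublets. Mature neutrophils held 80.5% of all wild-type and 82.7% of all SCD Il1b UMIs. Of the Il1rn UMIs, mature and immature neutrophils held 74.6% and 12.3% in the wild-type but 41.0% and 48.5% in the SCD library.

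RNA released from neutrophils into the suspension can reach other droplets. Relative to its own neutrophils, the 7 neutrophil transcripts S100a8, S100a9, Lcn2, Camp, Ngp, Ltf and Retnlg had a median of 0.226% in wild-type and 0.966% in SCD pDCs outside the mixed cluster. For Il1b the same measure was 0.938% and 3.46% in those pDCs, 3.76% and 4.87% in monocytes and 6.52% and 44.1% in conventional DCs, where the 7 transcripts stood at 0.294% and 1.02%. In conventional DCs the value for Il1b was above that of these transcripts in both libraries. It was taken against all neutrophils of a library, at 2039 CPM of Il1b in wild-type and 166 CPM in SCD. The SCD neutrophils were mostly immature cells with little Il1b, so that the 2 libraries are not alike in this measure. Whether RNA from neutrophils had a part in this Il1b was not tested. In pDCs the value for Il1b was above the highest of the 7 in both libraries (0.301% and 1.06%). These pDCs still held cluster 37, of 19 wild-type and 2 SCD cells, at 66.1 and 124 CPM of Il1b. Of its cells 94.7% and 50% were called doublets. In monocytes outside the mixed cluster the 7 stood at a median of 0.247% and 0.889%. Ratios to Il1b UMIs in these pDCs were close to those of mature neutrophils for Il1rn, at 0.104 (0.0593 to 0.172) and 0.106, but not for Il1f9, at 0.0123 (0.00147 to 0.0450) and 0.0634, or Nlrp3, at 0.669 (0.520 to 0.857) and 0.0780.

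The ratio of antagonist to cytokine UMIs was higher in SCD over all neutrophils and in the mature and immature stages. There were 0.106 Il1rn UMIs for each Il1b UMI in wild-type and 0.275 (0.263 to 0.287) in SCD mature neutrophils, and 0.123 (0.119 to 0.127) and 0.569 (0.551 to 0.588) over all neutrophils. Within the sub-clusters of the mature stage it was not higher in SCD in 3 of 4. It was 0.0957 (0.0916 to 0.0999) and 0.0609 (0.0449 to 0.0808) in sub-cluster 0, 0.108 and 0.0997 in sub-cluster 2, 0.321 and 0.253 in sub-cluster 1, and 3.71 and 5.60 in sub-cluster 5, with intervals that overlapped in the last 3. The pooled difference in the mature stage thus moved with the mix of sub-clusters. In immature neutrophils the ratio was 2.55 (2.18 to 2.99) and 4.33 (3.98 to 4.71), and in the 3 clusters of that stage with at least 50 cells of both libraries, which leave out the one rich in called doublets, it was 9.71 (7.27 to 13.2) and 23.6 (19.5 to 28.7).

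Other genes of the pathway were read from lists of 63 genes, 60 of them in the count tables. In neutrophils 18 were expressed, of which 7 were at least 2-fold lower and 1 higher in SCD, against 19.5% and 1.77% of all genes. The counts were the same under median-of-ratios scaling, where the shares of all genes were 9.91% and 8.27%. Those lower included Il1rap, the accessory chain of the IL-1 receptor (145 and 18.9 CPM), Nlrp12, a regulator of inflammatory signalling (138 and 27.1 CPM), Txnip, which can bind NLRP3 (729 and 135 CPM), and Ninj1, which ruptures the membrane of dying cells (167 and 39.1 CPM). The others were Myd88, Nfkbiz and Mefv. Serpinb1a, an inhibitor of neutrophil proteases, was higher, at 282 and 601 CPM.

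Within mature neutrophils 6 of 19 expressed pathway genes were lower and 1 higher, against 10.4% and 2.55% of all genes, but under median-of-ratios scaling 1 was lower (Il1rap) and 1 higher (Serpinb1a), against 2.52% and 5.56%. Il1rap stood at 225 and 44.1 CPM, Nfkbiz, an NF-κB cofactor, at 139 and 61.9 CPM, and Nfkbia, the NF-κB inhibitor and target, at 259 and 125 CPM. Nlrp12, Mefv and Txnip were also lower, and Serpinb1a was higher (18.3 and 74.3 CPM). In monocytes 3 of 20 were lower (Nfkbia, Nfkbiz and Txnip) and Serpinb1a higher, against 6.05% and 2.85% of all genes. In conventional DCs 4 of 15 were lower (Nfkbia, Nfkbiz, Tnfaip3 and Mefv), against 3.62%, and under median-of-ratios scaling 2 (Nfkbiz and Tnfaip3), against 2.33%. In pDCs, the mixed cluster included, Serpinb1a alone of 12 was higher, against 3.03%, and the part of that cluster in this was not tested. In red pulp macrophages none of 21 passed in either direction. In erythroid cells 2 of 7 were lower and 3 higher, against 6.25% and 60.6%, and under median-of-ratios scaling 4 of 4 were lower, against 38.3%. In immature and in dividing neutrophils none of 10 passed. With so few genes in each class, these shares are descriptions.

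A further list of 9 genes that NF-κB can switch on held Nlrp3 and 8 cytokines and chemokines, of which Nlrp3 alone was expressed in neutrophils. The rest were low in mature neutrophils and did not all go one way. Ccl4, a chemokine, was at 32.8 and 8.20 CPM and Ccl3 at 26.9 and 5.00 CPM, while Tnf was at 13.9 and 18.2 CPM.

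The genes whose level was most like that of a member over 18 class-by-library units were found among 6466 genes. The units share libraries and cells of related classes, so the correlations are descriptions. Il1b was most like Dusp1 (Pearson r = 0.95), H2-Q10 (0.93) and Nlrp3 (0.93). Nlrp3 itself was most like Sirpb1b (0.96), Clec7a and Il13ra1. Il1rn and Il1r2 shared Dhrs9 as their nearest gene (0.98 and 0.96) and Cxcr2, the chemokine receptor of mature neutrophils, among the nearest 3. Il1f9 was most like Amer2 (0.96), Mcam and Ppp1r3b, and Il18 was most like Maf, Spic, which specifies red pulp macrophages, and Prxl2b (each 0.97). Casp1 was most like Cstb (0.92), Chmp2b and Lmbrd1, Casp4 most like Arhgef3 (0.89), Tmcc1 and Rin3, Pycard most like Blmh (0.93), Mrpl48 and H2afy, and Gsdmd most like Fam49b (0.96), Myl12b and Arpc1b.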

How the data were processed

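The authors made the count tables with Cell Ranger 4.0.0, and the submitters' processing notes name GRCm38.p6, R 4.4, Seurat 3.2.3 and Scanpy 1.6.0. Gene positions were read from an annotation of that build. What they deposited was a table of UMI counts for each cell, without normalization. Depth per library is given above. Following the study's methods, a cell was kept if it had 500 to 5000 genes, less than 15% of its counts from mitochondrial genes and less than 30% from ribosomal ones. Genes seen in at least 20 cells were scaled with scran 1.30.0 (R 4.3.3). Both libraries were clustered together on 2000 variable genes, 30 components and 15 neighbours by Leiden at resolution 1 (Scanpy 1.11.5 with leidenalg 0.10.2 and igraph 0.11.9), under Python 3.11.15 with numpy 2.4.6, scikit-learn 1.9.0 and scipy 1.17.1, with the members and pathway genes left out. Names were rebuilt from marker lists and may differ from the study's. The naming margin of 0.05, the stage thresholds, the rule for mixed clusters and the further splits were set with the data at hand. Set per cell instead, the stage was that of the cluster in 98.8% of wild-type and 90.3% of SCD neutrophils. The 4 unnamed clusters (226 and 227 cells) were left out. Doublets were called with Scrublet in Scanpy (357 and 176 cells, 3.79% and 1.65%) and kept, since the study names no step that removes them from spleen libraries.

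UMIs were summed per library and class and divided by the class total (CPM). Reads do not tell Il1b or Pycard from antisense transcripts unless counted by strand, which is not given in the sources used here. All 10 members were described in each class with at least 50 cells in both libraries, with the 3 genes most like each by Pearson's r of log2(CPM + 5), and the pathway genes that were expressed and past 2-fold. Members and lists were chosen with earlier results of these data known. A count of 3 served as the floor where no UMI was seen. Labels gave the groups, 1 sample each, so no p-value was computed. The scripts were tested on simulated data. In all, 16 alternatives were planned and 3 were added after seeing the data. Figures were drawn with matplotlib 3.10.9.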

Additional observations from a re-analysis of the deposited data

Results flagged for a closer look

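Cells with over 5000 detected genes were left out of the comparisons, following the study's filter, except under the alternative with no upper limit on genes, and numbered 295 in the wild-type and 1220 in the SCD library. In them 3 members stood above the wild-type level beyond counting error. Pycard was at 151 CPM (149 to 154) in the SCD and 92.8 CPM in the wild-type cells, Casp1 at 17.3 CPM (16.4 to 18.3) and 9.32 CPM, and Il1f9 at 2.88 CPM (2.51 to 3.30) and 1.29 CPM. Il1b went the other way, at 6.08 CPM in the SCD and 35.7 CPM in the wild-type cells. The cell types among these cells were not compared.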

How the results depend on the processing

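No paired analysis was possible because a group was a single sample. With 1 animal per library, animal, library and disease cannot be told apart. Depth limits the erythroid and red pulp macrophage values, which rest on few UMIs. No member log2 ratio that was past 2-fold in the main settings changed sign under the alternatives listed here, but at an equal sub-cluster mix Il1b in mature neutrophils stood on both sides of 1 under other clusterings (0.956 to 1.08 at the wild-type mix). For the 13 such ratios other than those of Il1b in all and in mature neutrophils, 151 of 176 values under the alternatives stayed expressed and past 2-fold, and 3 of the other 25 kept the fold but missed the expression limit.

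For Il1b in neutrophils the log2 ratio was -3.67 with no upper limit on genes, -3.99 with at least 1000 genes, -3.62 at resolution 2, -3.52 with each library clustered on its own, -3.47 with 20 CPM added, -3.19 under median-of-ratios scaling and -2.50 as a mean over cells. In mature neutrophils it was -2.16, -2.85, -2.19 and -2.03 under the first 4 of these, -1.77 without mitochondrial and ribosomal filters, -1.55 with called doublets removed, -2.11 with total count normalization, -2.13 with the members kept in the clustering, -1.50 under median-of-ratios scaling, -1.38 as a mean over cells and -2.17 with the stage set per cell. With the sub-clusters weighted alike, an alternative added after seeing the data, it was -0.17 at the SCD mix (ratio 0.888). At the wild-type mix of sub-clusters the ratio was 0.984. At an equal stage mix the Il1b ratio was 0.224 with no upper limit, 0.141 with at least 1000 genes, 0.292 without the mitochondrial and ribosomal filters, 0.341 without doublets, 0.232 with total counts, 0.229 with members kept, 0.219 at resolution 2, 0.244 with separate clustering and 0.223 with the stage set per cell.

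Members lower in SCD neutrophils numbered 3 under median-of-ratios scaling and 4 with 20 CPM added (without Casp4, -0.86), and members higher numbered 0 with at least 1000 genes, doublets removed, resolution 2, separate clustering or 20 CPM added, Pycard then standing at 0.80 to 0.99. In monocytes 2 members passed under median-of-ratios scaling and as a mean over cells. In conventional DCs and pDCs 0 passed with doublets removed or without the mixed clusters. With doublets removed Il1b stood at -0.88 in conventional DCs and at -0.61 in pDCs. Without the mixed clusters it stood at -0.82 in conventional DCs, and in pDCs it kept the fold (-1.17) but missed the expression limit. In red pulp macrophages 1 passed, Il1b, with no upper limit, at least 1000 genes, no mitochondrial or ribosomal filter, doublets removed or separate clustering. The same held without shared barcodes (Nlrp3 at -1.32, under the expression limit) or mixed clusters. Apart from the run without shared barcodes, Nlrp3 fell short of 2-fold in these. It ran from -0.32 with at least 1000 genes to -0.94 with doublets removed. In conventional DCs the scaling moved lower genes from 68.7% to 54.7% of all calls (50.9% as a mean over cells), and in monocytes from 68.0% to 56.0%.

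Shares of mature neutrophils with a UMI, without thinning, were 94.3% and 57.3% for Il1b, 51.6% and 51.9% for Il1rn and 43.2% and 26.7% for Nlrp3 (wild-type and SCD). Thinned to 2000 UMIs, they were 92.3% and 44.4% for Il1b, 46.2% and 35.2% for Il1rn and 37.1% and 16.4% for Nlrp3. The neutrophil transcripts in pDCs stood at 1.66% and 6.67% of the neutrophil level with the mixed cluster, at 0.237% and 0.973% with doublets removed and at 0.226% and 0.966% without it. The cause of these shifts was not tested.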
